A study of Mus musculus with 30 samples.

Results

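Gene expression in the mouse hypothalamus was compared between 12 h and 1 h of refeeding after a 72 h fast. The comparison takes all libraries labelled with these times, 3 at 1 h and 3 at 12 h, out of 30 libraries in the series, and covers every gene that passed a filter on low counts. All animals were wild-type C57BL/6 mice, and both groups had gone without food for 72 h before food was returned, so neither is an unfasted control. The series follows the hypothalamus through fed, fasted and refed states. Mice refed for 1 week after the same 72 h fast (n = 4) were counted in the same table and fitted together with both groups. Mice at the end of the 72 h fast (n = 3) and fed mice (n = 3) come from another count table that was normalised separately, and only their levels are given, with no test across the tables. The sources used here do not give sex, age or time of day, nor whether the libraries of a group are of different animals, so p-values measure the spread between these samples, which may be technical.

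The hypothalamus holds the neurons that sense energy stores and set appetite. During a fast, circulating glucocorticoids rise and insulin and leptin fall, fatty acids and ketone bodies replace part of the glucose used as fuel, and neurons that produce Agrp and Npy drive hunger while neurons that produce Pomc and Cartpt restrain it. Food intake reverses these hormone signals, and feeding time itself also acts on clock genes in many tissues.

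Libraries held 28.48 to 33.08 M counts at 1 h and 26.12 to 34.05 M at 12 h (M, 1e6 counts), so that 1 CPM (1 count per 1e6, scaled by TMM normalisation) stood for 26.04 to 33.9 counts per library. The first principal component of the 6 libraries carried 50.4% of the variance and separated the times, from -21.28 to -11.53 at 1 h and from 11.35 to 19.7 at 12 h. The second carried 16.7% and set replicate 1 at 12 h apart at -18.55. Genes that define the hypothalamus were present: 20 of 22 were tested (Hmx2 and Hmx3 were too low), and their summed level was 775 to 1045 CPM at 1 h and 781 to 1027 CPM at 12 h. Markers of neighbouring striatum summed to 1943, 855 and 1540.0 CPM at 1 h and to 1996, 1653 and 2126 CPM at 12 h, and 0 of 15 were called by edgeR (0 at an unadjusted p below 0.05, 0 by DESeq2 and 0 by voom). Yet 14 of the 15 had a positive log2 fold change, with a median of 0.38. In alternative edgeR fits 5 were called higher with 1 surrogate variable and 1 with the replicate number as a block. Meningeal fibroblast markers summed to 118, 52.7 and 104 CPM at 1 h and to 108 to 130.4 CPM at 12 h. Replicate 2 at 1 h was thus the lowest of the 6 libraries in both lists. It was the highest in CT010467.1, a ribosomal RNA gene chosen after its values were seen, at 219, 888 and 36.6 CPM at 1 h against 26.4, 75.2 and 21.1 CPM at 12 h. The part that the dissection or the removal of ribosomal RNA plays in the results was not tested, and counts without this library are given where they differ by much.

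Of 19932 genes tested, 2834 (14.2%) differed between 12 h and 1 h at a Benjamini-Hochberg adjusted p below 0.05 in edgeR's quasi-likelihood test, and these are the genes referred to as called. The changes were even in number, with 1411 genes higher at 12 h (7.08%) and 1423 lower (7.14%). Genes known to respond to fasting and glucocorticoids were among the steepest decreases, such as Plin4, Cdkn1a and Mt1, whereas microglial, interferon and some oligodendrocyte genes were higher at 12 h. Most changes were small: the median absolute log2 fold change was 0.42 among called genes, and 193 genes rose and 112 fell by more than 2-fold. In 6360 genes (31.9%) the libraries of the groups did not overlap, called or not. The count of called genes depended on single libraries, from 1314 without replicate 3 at 12 h, 1417 without replicate 2 at 1 h, 1632 without replicate 2 at 12 h and 1716 without replicate 1 at 1 h to 3537 without replicate 1 at 12 h. In the authors' deposited table of this comparison 3260 of 18257 genes (17.9%) have a q-value below 0.05. Of the called genes, 2433 are listed in the authors' deposited table and 2198 have a q-value below 0.05 there, all 2198 in the same direction.

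**Figure D1:**
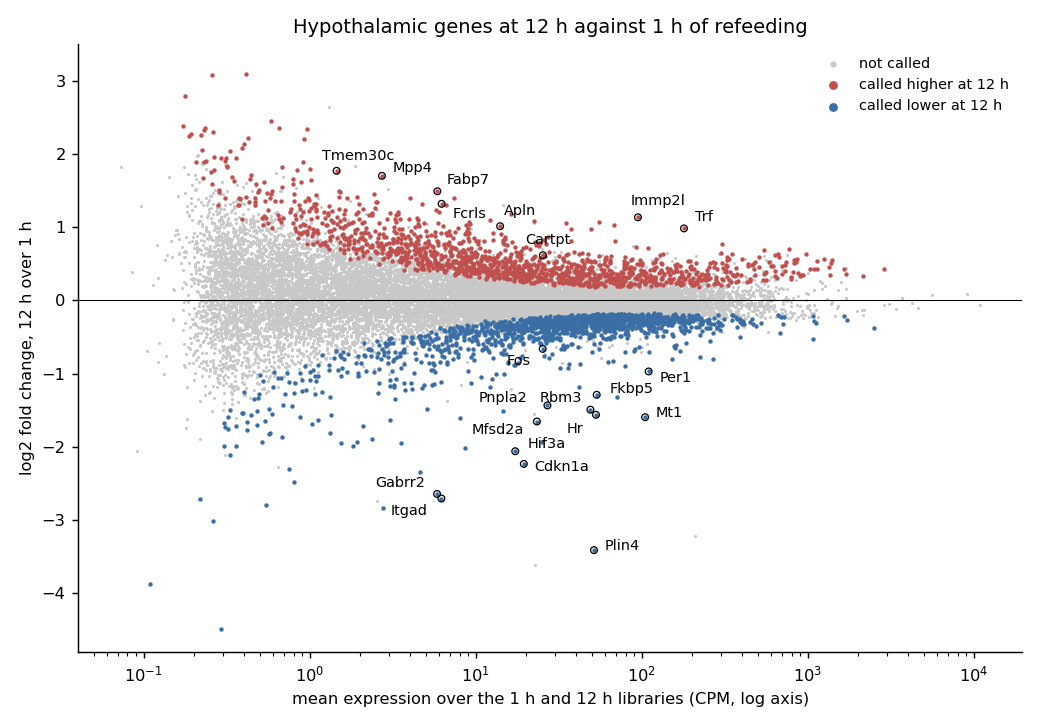
Each point is a tested gene, with its mean level over the 1 h and 12 h libraries (CPM, log axis) against its log2 fold change of 12 h over 1 h. Red points were called higher and blue points lower at 12 h, grey points were not called, and circled genes are named. Among genes above 1 CPM the largest called decrease is that of Plin4, at -3.41, while the circled genes that rose lie between 0.62 and 1.77.

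Glucocorticoid-responsive genes were mostly lower at 12 h. Of 26 genes in this list 24 were tested, 19 were lower and 0 were higher, against 7.14% and 7.08% of all tested genes, and the median log2 fold change was -0.90 against 0.00 for all tested genes. Leaving out any single library left 17 to 19 genes of this list lower. The counts of every list below are to be read against these same shares of all tested genes. All lists were written with earlier results of the series known, so a high share of called members is no independent support. Plin4, a coat protein of lipid droplets (ENSMUSG00000002831, chr17:56100591-56109803 in GRCm38), was read at 92.3, 86.8 and 104 CPM at 1 h and at 6.65, 9.68 and 10.2 CPM at 12 h. The 12 h level was 10.7-fold lower (log2 fold change -3.41 ± 0.16, adjusted p = 9.3e-07). Its level was 68.5 ± 21.5 CPM at the end of the 72 h fast (SD, n = 3), 28.8 ± 9.50 in fed mice (n = 3) and 10.9 ± 1.64 after 1 week of refeeding (n = 4). So the 12 h and 1 week libraries lay below both groups of the fasting table.

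Cdkn1a, the cell cycle inhibitor p21 (chr17:29090976-29100727), was at 33.2, 28.1 and 35.2 CPM at 1 h and 8.30, 5.01 and 7.29 CPM at 12 h, 4.69-fold lower at the later time (log2 fold change -2.23 ± 0.16, adjusted p = 3.82e-06). In the fasting table it stood at 23.2 ± 5.81 CPM at the end of the fast (SD, n = 3) and 7.58 ± 1.07 CPM in fed mice (n = 3). Fkbp5, a co-chaperone in a feedback loop with the glucocorticoid receptor (chr17:28399094-28517527), had 75.6, 64.7 and 88.1 CPM at 1 h and 26.9, 31.2 and 35.4 CPM at 12 h. The groups did not overlap, and the level was 2.45-fold lower at 12 h (log2 fold change -1.29 ± 0.11, adjusted p = 3.28e-05). Other genes overlap 10.7% of the span of Cdkn1a and 12.9% of that of Fkbp5.

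Mt1, a metallothionein that binds zinc and is induced by glucocorticoids and metals (chr8:94179082-94180327), was at 172, 148 and 153 CPM at 1 h and 51.99, 48.8 and 56.02 CPM at 12 h, 3.02-fold lower (log2 fold change -1.59 ± 0.08, adjusted p = 8.11e-08). Unlike the genes above, it was not high in the fast relative to fed mice in the fasting table, with 161 ± 18.7 CPM (SD, n = 3) and 181 ± 24.4 CPM (n = 3). It stood at 99.03 ± 7.14 CPM at 1 week (n = 4), above its 12 h level (log2 fold change 0.92 ± 0.08, edgeR adjusted p = 3.69e-05). The neighbouring Mt2 was read below 0.4 CPM in all 6 libraries, and 82.8% of its span is overlapped by other genes, so its change is not described. Arrdc2, Map3k6, Hif3a and Zbtb16 fell by 1.52, 1.94, 2.06 and 1.32 on the log2 scale (adjusted p = 6.12e-05, 0.000628, 0.00568 and 0.00383). Not every member was called: Sgk1, a kinase that is a classical target of the receptor, averaged 116 CPM at 1 h and 80.6 CPM at 12 h (log2 fold change -0.52 ± 0.28, adjusted p = 0.272), and its groups overlapped.

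**Figure D2:**
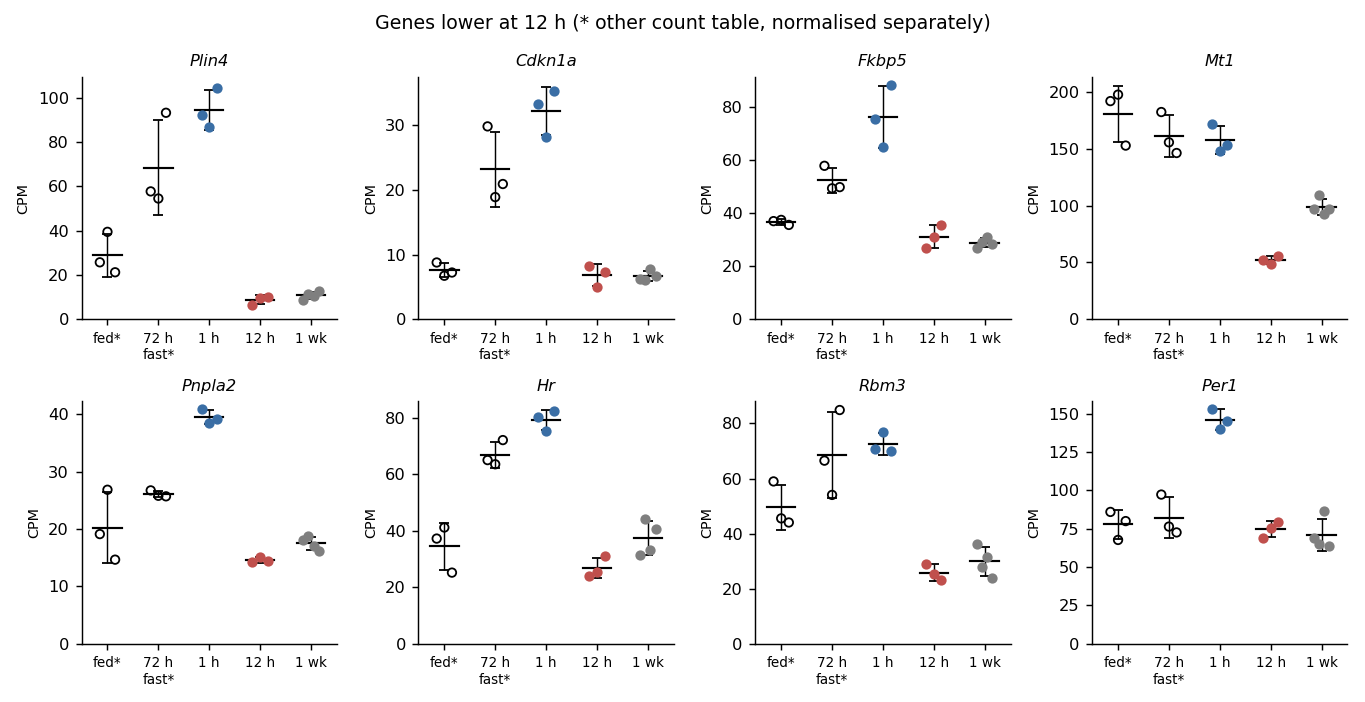
Each panel shows 1 gene in CPM, with a point per library, a bar at the group mean and whiskers of 1 SD. Filled points are the refed groups of 1 table (1 h in blue, 12 h in red, 1 week in grey), and open points are fed and 72 h fasted mice of the other table, normalised separately. All 8 genes have every 12 h library below every 1 h library, as do 16.3% of all tested genes. All 8 were called lower, so this gap is no added support. Per1 differs from Plin4, Cdkn1a and Fkbp5 in that its 72 h fast level was near its fed level.

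The glucocorticoid receptor binds a palindrome of spaced repeats, and promoters of the list were searched for GNACANNNTGTNC on both strands. In the 300 bases from 250 before to 50 after the start (RefSeq, GRCm38.p6), 3 of 23 matched genes of the list held it (13%), Mt1, Map3k6 and Sgk1, against 0.537% of 27025 genes. The 250 bases before the start are shown for Mt1 (chr8:94178839-94179088, plus strand) and Map3k6 (chr4:133240568-133240817, plus strand), the called genes with a match there, with the match in capitals. It begins 94 bases before the start in Mt1 and 181 bases before it in Map3k6. A match describes the letters only and is no evidence that the receptor binds.
Mt1: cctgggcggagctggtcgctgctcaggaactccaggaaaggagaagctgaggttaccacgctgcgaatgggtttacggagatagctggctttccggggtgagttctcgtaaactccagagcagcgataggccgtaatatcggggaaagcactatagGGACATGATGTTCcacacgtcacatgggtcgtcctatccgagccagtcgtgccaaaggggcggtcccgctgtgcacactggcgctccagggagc
Map3k6: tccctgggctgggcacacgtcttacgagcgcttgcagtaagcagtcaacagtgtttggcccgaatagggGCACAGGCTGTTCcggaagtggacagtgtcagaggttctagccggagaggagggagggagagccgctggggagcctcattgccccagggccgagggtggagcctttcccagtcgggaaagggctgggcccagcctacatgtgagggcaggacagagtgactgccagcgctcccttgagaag

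Some genes of fat use fell as well. In the list of fatty acid oxidation, lipolysis and ketone use genes 25 of 29 were tested, 6 were lower and 1 was higher at 12 h, with a median log2 fold change of -0.15. Without a single library the lower count was 4 to 8, the 4 being without replicate 2 at 1 h or replicate 3 at 12 h. Pnpla2, the lipase that starts the breakdown of stored triglyceride (chr7:141455198-141460743), was at 40.9, 38.5 and 39.2 CPM at 1 h and 14.3, 15.2 and 14.5 CPM at 12 h. The 12 h level was 2.70-fold lower (log2 fold change -1.43 ± 0.08, adjusted p = 8.47e-08). Pdk4, which holds pyruvate back from oxidation, fell from 12.9 ± 2.19 to 5.90 ± 1.21 CPM (SD, n = 3 each, log2 fold change -1.12 ± 0.17, adjusted p = 0.00128, edgeR). Cpt1a, which admits long-chain fatty acids to mitochondria, fell 1.31-fold. Oxct1, which takes up ketone bodies into oxidation, was the member that rose (log2 fold change 0.22), and 0 members rose when any library other than replicate 1 at 12 h was left out. Pdk4 and Angptl4 stand in both this list and the glucocorticoid list. The acyl-CoA dehydrogenases Acadl, Acadm and Acadvl were not called, with log2 fold changes of -0.24, -0.13 and -0.27.

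Genes of insulin signalling and glucose entry fell in part. Of 26 tested genes of the insulin and FoxO list 8 were lower and 1 was higher, but this count fell to 3 without replicate 1 at 1 h or replicate 3 at 12 h, to 4 without replicate 2 at 12 h and to 5 without replicate 2 at 1 h. Klf15, a transcription factor of fasting metabolism, was at 51.9, 53.2 and 60.2 CPM at 1 h and 28.6, 30.7 and 31.4 CPM at 12 h (log2 fold change -0.87 ± 0.08, adjusted p = 1.35e-05). Irs2, the insulin receptor substrate that FoxO factors induce, went from 157 ± 16.8 to 118 ± 3.46 CPM (SD, n = 3 each, log2 fold change -0.41 ± 0.07, adjusted p = 0.00237, edgeR). Akt2, a kinase downstream of insulin, went the other way, from 48.7 ± 3.83 to 73.6 ± 4.67 CPM (n = 3 each, log2 fold change 0.60 ± 0.09, adjusted p = 0.000931, edgeR). Slc2a4, the insulin-regulated glucose transporter, was 3.08-fold lower at 12 h and Slc2a1, the transporter of the blood-brain barrier, 1.57-fold lower (adjusted p = 0.00211 and 0.00153).

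Several large decreases lay outside the lists above. Itgad, an integrin alpha chain of myeloid cells, was at 10.1, 10.3 and 11.96 CPM at 1 h and 1.69, 1.75 and 1.53 CPM at 12 h, 6.51-fold lower (log2 fold change -2.70 ± 0.15, adjusted p = 8.47e-08), and 28.3% of its span is overlapped by other genes. Gabrr2, a rho subunit of GABA receptors, was at 10.8, 9.34 and 10.2 CPM at 1 h and 1.58, 1.68 and 1.59 CPM at 12 h, 6.25-fold lower (log2 fold change -2.64 ± 0.17, adjusted p = 5.89e-07). Both were named for a large called change without overlap between groups, so the gap between their groups is no added support. Hr, a nuclear corepressor induced by thyroid hormone, was at 80.3, 75.5 and 82.3 CPM at 1 h and 24.02, 25.6 and 30.99 CPM at 12 h (log2 fold change -1.56 ± 0.13, adjusted p = 3.67e-05). Mfsd2a, the transporter that carries lysophosphatidylcholine with docosahexaenoic acid into the brain, was 3.15-fold lower (log2 fold change -1.65 ± 0.12, adjusted p = 1.67e-06), and Sdc4, a heparan sulfate proteoglycan with a smaller change, 1.87-fold lower (adjusted p = 1.25e-05).

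The cold-inducible RNA-binding proteins fell together. Rbm3 was at 70.8, 76.95 and 69.8 CPM at 1 h and 28.97, 25.4 and 23.1 CPM at 12 h (2.81-fold lower, log2 fold change -1.49 ± 0.13, adjusted p = 5.81e-05). Cirbp was at 56.8, 65.6 and 52.1 CPM at 1 h and 26.7, 26.4 and 23.8 CPM at 12 h (2.27-fold lower, log2 fold change -1.18 ± 0.13, adjusted p = 0.000353). Both are proteins whose expression rises when body temperature drops, and no body temperature is given in the sources used here. Their 1 h levels were near those at the end of the 72 h fast, 68.5 ± 15.5 CPM for Rbm3 and 59.9 ± 6.05 CPM for Cirbp (SD, n = 3). In fed mice Rbm3 was at 49.5 ± 8.22 CPM and Cirbp at 39.1 ± 1.22 CPM (n = 3). The 12 h libraries thus lay below both groups of the fasting table in both genes. Of the 12 tested genes of this list, which also holds splicing factors, 3 were lower and 1 was higher, the third faller being Rsrp1 (log2 fold change -0.69). Without replicate 1 at 12 h 5 were lower, and the 1 that rose, Tra2a, was not called without that library, replicate 1 or 2 at 1 h or replicate 3 at 12 h.

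Immediate early genes, which neurons and other cells switch on within minutes of a stimulus, were lower at 12 h. Of 39 tested genes of this list 16 were lower and 0 were higher, with a median log2 fold change of -0.40, and leaving out any single library left 12 to 14 lower. Fos was at 31.8, 33.1 and 28.4 CPM at 1 h and 18.2, 22.8 and 17.9 CPM at 12 h (log2 fold change -0.66 ± 0.11, adjusted p = 0.00154). Its level was 3.16 ± 0.665 CPM at the end of the fast (SD, n = 3), 13.4 ± 4.12 CPM in fed mice (n = 3) and 14.7 ± 1.33 CPM at 1 week (n = 4), so every refed group lay above the fasted one. Junb, another AP-1 subunit, was likewise lowest at the end of the fast. Its levels were 49.5, 35.7 and 40.8 CPM at 1 h and 21.9, 21.3 and 23.2 CPM at 12 h (log2 fold change -0.92 ± 0.16, adjusted p = 0.0033), after 5.71 ± 0.922 CPM at the end of the fast. Klf4, Maff, Fosb and Nr4a3 fell by 1.12, 1.18, 1.05 and 0.87 on the log2 scale (adjusted p = 0.00237, 0.00385, 0.00459 and 0.00858). Other members that neuronal activity induces were not called, among them Egr1, Arc and Nr4a1 with log2 fold changes of -0.64, -0.64 and -0.56, and Npas4 with -0.12. Per1 and Dusp1 stand in both this list and the glucocorticoid list.

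Among core clock genes the period and cryptochrome genes fell, and the activators Arntl and Clock were not called. Of 21 tested clock genes 9 were lower and 0 were higher, with a median log2 fold change of -0.18, and 6 to 11 were lower when any single library was left out. The count was 6 without replicate 1 or replicate 2 at 1 h, and without replicate 1 at 12 h 2 were higher. Per1 was at 153, 139.7 and 145 CPM at 1 h and 69.1, 75.2 and 79.5 CPM at 12 h, 1.96-fold lower (log2 fold change -0.97 ± 0.10, adjusted p = 8.61e-05). Per1 had 82.1 ± 13.3 CPM at the end of the fast, 77.9 ± 9.32 CPM in fed mice (SD, n = 3 each) and 71.1 ± 10.6 CPM at 1 week (n = 4), so the 1 h group stood alone at the top. Per2 was at 72.5, 70.9 and 73.5 CPM at 1 h and 47.8, 50.6 and 51.9 CPM at 12 h (log2 fold change -0.53 ± 0.06, adjusted p = 0.000148). Cry1 fell from 31.2 ± 3.47 to 21.8 ± 0.689 CPM and Tef, a clock output factor, from 292 ± 13.4 to 225 ± 8.80 CPM (SD, n = 3 each, edgeR adjusted p = 0.00241 and 0.00227). Cry2 fell by 0.48 on the log2 scale, and other genes overlap 77% of its span. Arntl and Clock had log2 fold changes of 0.25 and 0.07. The times of day at which the groups were sampled are not given in the sources used here, so refeeding time and time of day cannot be told apart.

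Clock and its partner bind the E-box CACGTG, which was found on either strand in the promoters of 5 of 19 matched clock genes (26.3%) against 8.09% of 27025 genes, over the same 300 bases. The upstream bases are shown for Per1 (chr11:69098699-69098948, plus strand) and Cry1 (chr10:85185055-85185304, minus strand), a period and a cryptochrome gene that fell, with the E-box in capitals. It begins 166 bases before the start in Per1 and 60 bases before it in Cry1. Bhlhe41 and Tef, which were also lower, hold an E-box too, as does Ciart, which was not tested. Of 32851 promoters 12 held both the E-box and the glucocorticoid palindrome. The matches shared bases in 0 promoters, which says little with so few holding both.
Per1: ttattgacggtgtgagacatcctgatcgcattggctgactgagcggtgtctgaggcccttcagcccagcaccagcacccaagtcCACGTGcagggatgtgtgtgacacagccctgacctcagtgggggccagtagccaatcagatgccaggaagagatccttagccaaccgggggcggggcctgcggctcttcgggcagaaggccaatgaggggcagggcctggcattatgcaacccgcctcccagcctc
Cry1: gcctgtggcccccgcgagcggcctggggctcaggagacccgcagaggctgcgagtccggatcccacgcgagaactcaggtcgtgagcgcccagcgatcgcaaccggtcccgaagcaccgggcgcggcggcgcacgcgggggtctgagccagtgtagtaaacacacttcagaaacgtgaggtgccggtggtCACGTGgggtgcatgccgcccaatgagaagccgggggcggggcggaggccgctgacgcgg

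The feeding peptides were called about as often as all tested genes. At 12 h 2 of 30 tested members were higher and 2 lower (6.67% each), against 7.08% and 7.14% of all tested genes, and the median log2 fold change was 0.06. Cartpt, whose peptide restrains feeding (chr13:99898489-99901091), was at 19.996, 20.5 and 19.8 CPM at 1 h and 31.5, 30.7 and 30.2 CPM at 12 h. The groups were wide apart relative to their spread, a 1.53-fold rise (log2 fold change 0.62 ± 0.08, adjusted p = 0.000482), and it stayed called without any single library. Its levels in fed and 72 h fasted mice spread from 13.7 to 30.5 CPM and overlapped both refed groups. Npy, which drives feeding, was at 27.7, 30.2 and 32.4 CPM at 1 h and 22.02, 24.1 and 18.9 CPM at 12 h (log2 fold change -0.47 ± 0.11, adjusted p = 0.0126). It was lower still at 1 week, at 8.59 ± 1.07 CPM (SD, n = 4, log2 fold change against 12 h -1.33 ± 0.11, edgeR adjusted p = 3.69e-05). Without replicate 3 at 12 h the change of Npy from 1 h to 12 h was -0.37 and not called (adjusted p = 0.0725).

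Agrp, which the same neurons release to block melanocortin receptors, went the other way. It was at 5.06, 4.95 and 6.49 CPM at 1 h and 7.26, 7.83 and 8.06 CPM at 12 h (log2 fold change 0.49 ± 0.12, adjusted p = 0.0178). The groups did not overlap, but the call was lost without replicate 1 at 1 h (adjusted p = 0.0732), replicate 2 at 1 h (0.0824), replicate 2 at 12 h (0.0574) or replicate 3 at 12 h (0.07), and 59.9% of the annotated span is overlapped by other genes. Pomc, the precursor of melanocortins that restrain feeding, was at 15.7, 6.58 and 3.199 CPM at 1 h and 5.34, 51.3 and 6.14 CPM at 12 h. A single 12 h library was high and the groups overlapped, so no difference was detectable (log2 fold change 1.31 ± 1.06, adjusted p = 0.473). Without that library, replicate 2 at 12 h, its log2 fold change was -0.57 (edgeR adjusted p = 0.743). Markers of the pituitary summed to 213, 193 and 155 CPM at 1 h and to 149, 203 and 144 CPM at 12 h. Among the 12 h libraries their sum was thus highest in replicate 2 as well. The part that pituitary tissue plays in the level of Pomc was not tested.

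Ghsr, the ghrelin receptor, was at 4.90, 6.10 and 5.11 CPM at 1 h and 3.42, 3.60 and 2.83 CPM at 12 h (log2 fold change -0.71 ± 0.18, adjusted p = 0.0156). Ghrl, the ghrelin gene, was at 8.15, 9.79 and 7.53 CPM at 1 h and 5.38, 6.25 and 6.46 CPM at 12 h (log2 fold change -0.49 ± 0.12, adjusted p = 0.0176), and other genes overlap 18.6% of its span. Both calls were lost without replicate 2 at 1 h (adjusted p = 0.0661 for Ghsr and 0.0792 for Ghrl), and that of Ghsr also without replicate 3 at 12 h (0.0804). Of 24 tested receptors of feeding signals the called ones were Ghsr and Adipor2, an adiponectin receptor at 89.6, 92.5 and 112 CPM at 1 h and 59.6, 56.4 and 64.3 CPM at 12 h (log2 fold change -0.71 ± 0.09, adjusted p = 0.000282). That is 8.33% of the receptors called lower, near the 7.14% of all tested genes. The leptin receptor Lepr and the melanocortin receptor Mc4r had log2 fold changes of 0.01 and -0.01.

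**Figure D3:**
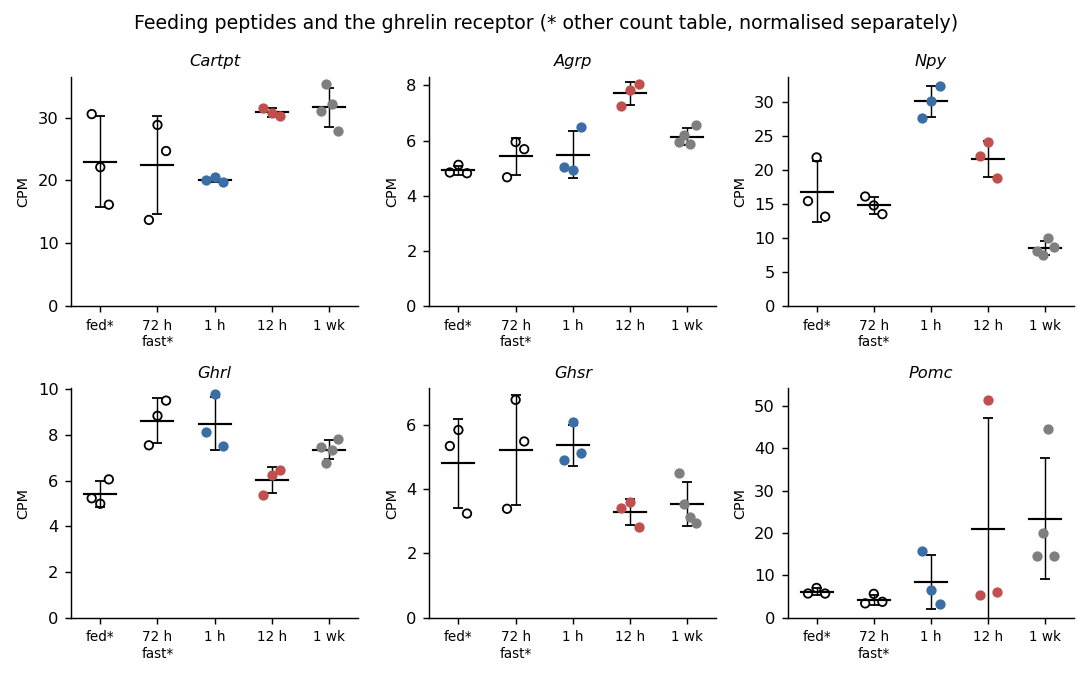
Each panel shows 1 gene in CPM, with a point per library, a bar at the group mean and whiskers of 1 SD. Filled points are the refed groups (1 h in blue, 12 h in red, 1 week in grey) and open points are the fed and 72 h fasted mice of the separately normalised table. Cartpt and Agrp are higher and Npy, Ghrl and Ghsr lower at 12 h than at 1 h, while Pomc has a single high 12 h library at 51.3 CPM.

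Part of the microglial and interferon genes rose from 1 h to 12 h. Of 13 tested microglia markers 5 were higher and 0 were lower, as also when any single library was left out, and their summed level rose from 176 to 188 CPM at 1 h to 217 to 259 CPM at 12 h. The marker P2ry12 did not pass the filter. Fcrls, an Fc receptor-like protein of microglia (chr3:87250758-87263738), was at 3.95, 3.97 and 2.81 CPM at 1 h and 9.41, 8.71 and 8.59 CPM at 12 h, a 2.49-fold rise (log2 fold change 1.32 ± 0.13, adjusted p = 5.2e-05). In the fasting table it stood at 4.54 ± 0.731 CPM after the fast and 11.7 ± 2.35 CPM in fed mice (SD, n = 3 each), so the 12 h level lay between them. Siglech, Tmem119 and Aif1 rose 1.59-fold, 1.52-fold and 2.26-fold (adjusted p = 0.00442, 0.00641 and 0.00636), and Cx3cr1, the fractalkine receptor, 1.70-fold, with 57.4% of its span overlapped. Broader markers of these cells were not called: C1qa, Csf1r and Ctss had log2 fold changes of 0.31, 0.20 and 0.14. In bulk tissue, more cells of a type and more RNA per cell cannot be told apart.

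Other genes of immune cells changed in both directions. Cd180, a Toll-like receptor relative, Slc2a5, the fructose transporter that microglia express, and Olfml3, a secreted protein, rose 2.76-fold, 2.54-fold and 1.99-fold. Itgad, described above, and Il12rb1, a receptor chain for interleukin 12, fell, the latter 3.70-fold (log2 fold change -1.89 ± 0.24, adjusted p = 0.000334). In the interferon-stimulated and antigen presentation list 12 of 22 tested genes were higher and 0 were lower, with a median log2 fold change of 0.78, and 8 to 10 were higher without any single library, the 8 being without replicate 1 at 1 h. The list's summed level was 99.9 to 103 CPM at 1 h and 126 to 131 CPM at 12 h. Ifitm3, a membrane protein that blocks virus entry, was at 3.44, 2.68 and 2.69 CPM at 1 h and 5.30, 6.42 and 6.49 CPM at 12 h (log2 fold change 1.05 ± 0.17, adjusted p = 0.00153). Bst2, which tethers budding virus, Gbp2, a guanylate-binding protein, and Ifit1 rose 2.40-fold, 2.33-fold and 1.98-fold (adjusted p = 0.00494, 0.00369 and 0.00431). The class I heavy chains H2-D1 and H2-K1 had log2 fold changes of -0.08 and -0.01. Markers of blood cells, which also express interferon genes, summed to 131 to 193 CPM at 1 h and 132 to 192 CPM at 12 h, and 0 of 8 tested were called by edgeR (0 at an unadjusted p below 0.05, 0 by DESeq2 and 0 by voom).

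Oligodendrocyte genes divided into 2 directions. Of 14 markers 6 were higher and 4 were lower. Opalin, a myelin membrane protein, was at 11.4, 11.2 and 9.72 CPM at 1 h and 20.5, 17.7 and 19.8 CPM at 12 h (log2 fold change 0.84 ± 0.11, adjusted p = 0.000458). Ugt8a, the enzyme of galactosylceramide synthesis, was at 33.3, 32.95 and 33.99 CPM at 1 h and 77.2, 61.8 and 57.4 CPM at 12 h (log2 fold change 0.97 ± 0.09, adjusted p = 3.23e-05). St18, a zinc finger factor of oligodendrocytes, rose 1.75-fold and Olig2, a lineage factor, 1.52-fold. The 4 that fell code for compact myelin and junction proteins, Mobp, Mal, Cldn11 and Mbp, with log2 fold changes of -0.44, -0.39, -0.33 and -0.26, and Mog, with 0.03, was not called. Without a single library the higher count was 4 to 6 and the lower count 0 to 4, the 0 being without replicate 2 at 12 h, 1 without replicate 2 or 3 at 1 h or replicate 3 at 12 h. Trf, transferrin, rose 1.98-fold, and 99.5% of its span is overlapped by other genes, with which its counts may be shared or lost.

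Further genes that rose belong to several functions. Fabp7, a fatty acid-binding protein of astrocytes and radial glia, was at 3.31, 3.62 and 2.33 CPM at 1 h and 11.1, 7.46 and 7.47 CPM at 12 h (log2 fold change 1.49 ± 0.19, adjusted p = 0.00041). It rose further to 20.4 ± 2.10 CPM at 1 week (SD, n = 4, log2 fold change against 12 h 1.24 ± 0.16, edgeR adjusted p = 0.000706). Apln, the apelin precursor, was at 9.23, 10.3 and 8.37 CPM at 1 h and 20.5, 17.1 and 18.7 CPM at 12 h (log2 fold change 1.01 ± 0.10, adjusted p = 5.49e-05). Bche, butyrylcholinesterase, rose 2.06-fold to 12.5 ± 1.12 CPM (SD, n = 3, edgeR adjusted p = 6.12e-05). Tmem30c, a flippase subunit relative, Mpp4, a scaffold protein, and Slc38a5, a glutamine transporter, had the largest called rises among protein-coding genes with a mean of at least 1 CPM whose groups did not overlap, of 3.43-fold, 3.25-fold and 3.14-fold, all from below 1.5 CPM at 1 h. Col3a1, a collagen of meningeal fibroblasts, rose 2.67-fold from 2.77, 1.01 and 2.84 CPM at 1 h to 6.19, 5.45 and 6.02 CPM at 12 h, and its lowest value was in replicate 2 at 1 h, the library with the fewest meningeal transcripts.

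Some chaperone genes rose. Of 22 heat shock and cytosolic chaperone genes 5 were higher and 2 were lower (22.7% and 9.09%, against 7.08% and 7.14% of all tested genes). Hsph1, a co-chaperone of the Hsp70 system, was at 155, 157 and 156 CPM at 1 h and 245, 216 and 217 CPM at 12 h (log2 fold change 0.54 ± 0.08, adjusted p = 0.00119). Stip1, Cryab and Chordc1 rose 1.31-fold, 1.35-fold and 1.42-fold, whereas Hspa1b fell by 0.88 and Dnajb1 by 0.32 on the log2 scale. The 2 decreases were not called without replicate 1 or 2 at 1 h or replicate 2 or 3 at 12 h. The heat shock element GAANNTTCNNGAA was found in 4 of 17 matched promoters of this list (23.5%) against 0.662% of 27025 genes. Hsph1 and Chordc1, which rose, held it, as did Hspd1 and Hspe1, which were not called. The other motifs searched were also above their share of all genes. TGACGTCA was in 3 of 29 matched immediate early genes (10.3% against 2.03%). TCACNCCAC was in 1 of 16 matched cholesterol synthesis and uptake genes (6.25% against 1.44%). TGATGNAAT was in 2 of 20 matched genes of the Atf4 list (10% against 1.08%).

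More astrocyte markers fell than rose. Of 12 markers 5 were lower and 1 was higher, and the lower count was 3 without replicate 2 at 1 h, replicate 2 at 12 h or replicate 3 at 12 h, and the higher count 2 without replicate 2 at 12 h. Agt, angiotensinogen, was at 284, 295 and 276 CPM at 1 h and 174, 186 and 139 CPM at 12 h (log2 fold change -0.78 ± 0.12, adjusted p = 0.0017). Gjb6, connexin 30, was at 78.5, 79.1 and 85.96 CPM at 1 h and 45.5, 44.6 and 45.3 CPM at 12 h (log2 fold change -0.85 ± 0.11, adjusted p = 0.000388). Fgfr3 fell 1.63-fold, and S1pr1, a sphingosine 1-phosphate receptor, rose 1.29-fold. The summed level of the list was 3628 to 3752 CPM at 1 h and 2918 to 3490.3 CPM at 12 h.

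Markers of oligodendrocyte precursors also changed in both directions, with 4 of 12 tested higher and 2 lower. These counts were 2 and 1 without replicate 1 or 2 at 1 h or replicate 2 at 12 h, and 3 and 1 without replicate 3 at 1 h or replicate 3 at 12 h. Besides Olig2, which stands in this list, Olig1, another lineage factor, had a log2 fold change of 0.34, and Pdgfra, the growth factor receptor of these cells, had one of -0.34 (adjusted p = 0.0166 and 0.00373, edgeR).

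In the amino acid response list of Atf4, 6 of 22 tested genes were lower and 1, Slc7a11, was higher, with 0 higher when any library other than replicate 1 at 1 h was left out. The lower count was 4 without replicate 2 at 1 h, 5 without replicate 2 or 3 at 12 h and 7 without replicate 1 at 12 h. Atf4 itself fell from 59.99 ± 6.88 to 42.7 ± 1.61 CPM (SD, n = 3 each, log2 fold change -0.49 ± 0.08, adjusted p = 0.00128, edgeR), and Psat1, a serine synthesis enzyme, 1.35-fold. Cytosolic ribosomal protein genes had 8 of 36 lower and a median log2 fold change of -0.23, but 0 were lower without replicate 3 at 12 h, 1 without replicate 1 or 2 at 1 h, 4 without replicate 2 at 12 h, 14 without replicate 3 at 1 h and 23 without replicate 1 at 12 h. Neuron markers and tanycyte markers had 0 called genes of 11 and 15 tested by edgeR, 1 of each list at an unadjusted p below 0.05, and 1 of each was called by DESeq2 and by voom. Cholesterol synthesis genes had 4 of 23 lower, 0 without replicate 2 at 1 h or replicate 3 at 12 h and 2 without replicate 1 at 1 h or replicate 2 at 12 h. Prkcd, a thalamic marker, was at 20.6, 44.8 and 54.1 CPM at 1 h and 11.3, 10.3 and 9.86 CPM at 12 h, and its call (adjusted p = 0.0158) was lost without replicate 2 at 1 h (0.0524), replicate 2 at 12 h (0.0587) or replicate 3 at 12 h (0.0705).

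**Figure D4:**
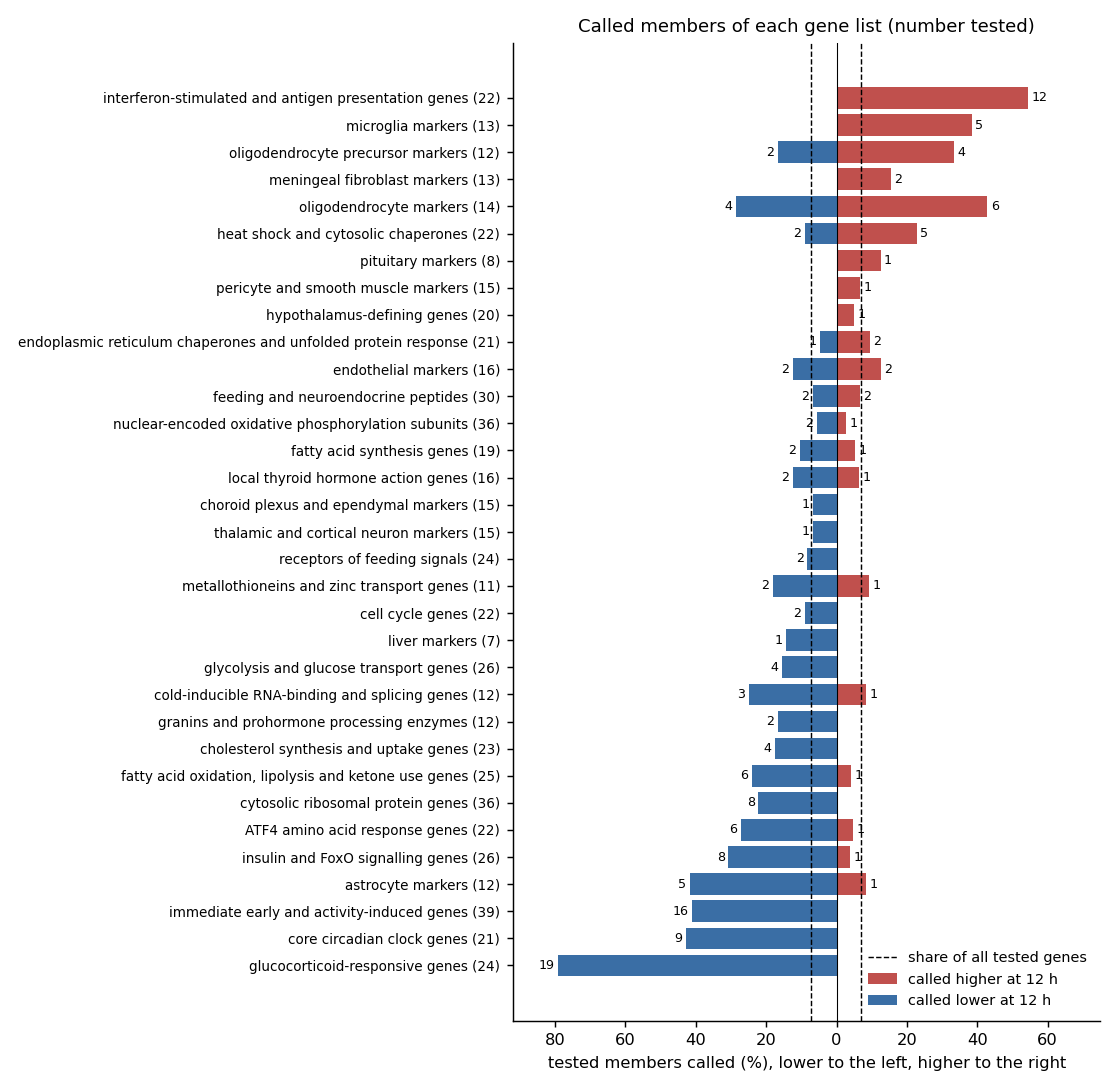
Bars give the share of each list's tested members called higher (red, right) or lower (blue, left) at 12 h, in percent, with the number of members at the bar's end and the number tested beside the name. Dashed lines mark the shares over all tested genes, 7.08% higher and 7.14% lower, and lists without a called member are left out. The longest bars are those of the glucocorticoid-responsive genes, with 19 of 24 lower, and of the interferon list, with 12 of 22 higher. The lists were written with earlier results of the series known.

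The direction of change also varied with gene length on the chromosome. Protein-coding genes were put in 5 groups of equal size by span. Among those with the shortest spans, 0.255 to 9.03 kb, 106 were higher and 351 lower at 12 h (3.42% and 11.3%). Among those with the longest spans, 79.7 to 4435 kb, 506 were higher and 86 lower (16.4% and 2.78%). Immp2l, a mitochondrial protease gene spanning chr12:41024090-41955588, was among the long genes that rose, at 61.6, 51.98 and 64.9 CPM at 1 h and 127, 129 and 137 CPM at 12 h. Across 15467 protein-coding genes Spearman's rho between span and log2 fold change was 0.268, and 0.0569 between exonic length and log2 fold change; genes share libraries and are not independent replicates. Of 2946 long noncoding RNA genes 231 were higher (7.84%) and 76 lower (2.58%), against 7.08% and 7.14% of all tested genes. The counting options are not given in the sources used here. Of 1281 protein-coding genes overlapped throughout by other genes 92% had no count, against 14.5% of 11661 without overlap. Whether reads in introns were counted is not stated and was not tested.

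**Figure D5:**
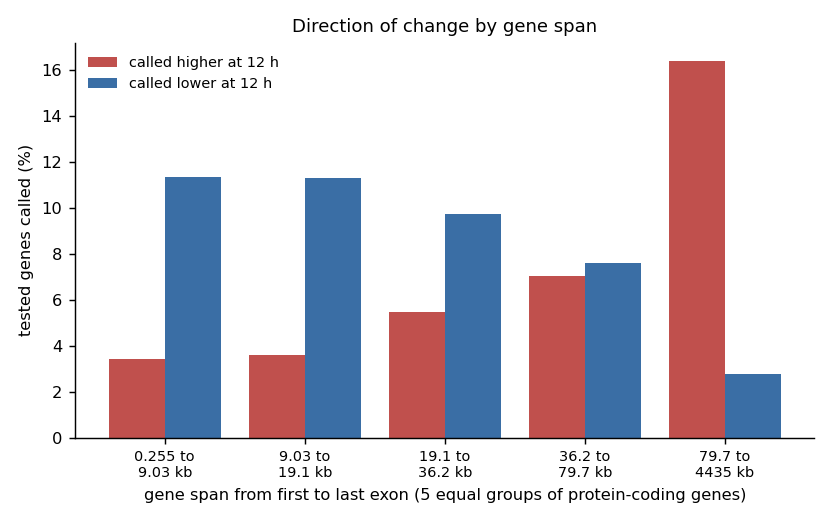
Bars give the percent of tested protein-coding genes called higher (red) or lower (blue) at 12 h, in 5 equal groups by gene span in kb. The share called higher runs from 3.42% in the shortest genes to 16.4% in the longest, and the share called lower from 11.3% to 2.78%.

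Most named genes were not called different between 12 h and 1 week of refeeding. Of 138 called genes named by the rule, 82 were lower and 56 higher at 12 h. Of these, 55 lower and 45 higher genes were not called different between 12 h and 1 week. That comparison shares the 12 h libraries and called 11.6% of all genes, 6.56% higher and 5% lower at 1 week. The rest of the named genes were called in it, a larger share than the 11.6% of all genes. An adjusted p above 0.05 does not show that the levels are equal. Cdkn1a was at 6.87 ± 1.69 CPM at 12 h (SD, n = 3) and 6.70 ± 0.789 CPM at 1 week (n = 4), and Fkbp5 at 31.1 ± 4.26 and 28.8 ± 1.66 CPM. Mt1, Cirbp and Hr had risen again by 1 week, to 99.03 ± 7.14, 38.8 ± 6.63 and 37.4 ± 6.06 CPM (n = 4, edgeR adjusted p = 3.69e-05, 0.0113 and 0.0261), while Fos and Junb were lower than at 12 h (0.0158 and 0.0111).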

How the data were processed

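Per the labels, RNA was total RNA from a Qiagen RNeasy kit, and a directional NEBNext Ultra II kit with ribosomal depletion was used for library preparation. Reads were aligned to mm10 with HISAT2, counted with featureCounts and compared with edgeR, per the submitters' processing notes, with no versions or counting options in the sources used here. The authors deposited raw counts per gene, whole numbers for 55401 genes in the refeeding table. The authors also deposited an edgeR table for this comparison, with a log2 fold change, a p-value and a q-value per gene.

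Counts were filtered with filterByExpr, scaled by TMM and fitted with edgeR 4.0.16 (R 4.3.3) for the 1 h, 12 h and 1 week libraries together, without covariates, with robust quasi-likelihood F tests, a prior count of 0.125 and Benjamini-Hochberg adjustment over all tested genes at 0.05. Levels are TMM-scaled CPM. Standard errors are the log2 fold change over the square root of F. The 12 pairs of replicates in the table all differed by more than sampling noise (chi-square per degree of freedom 8.85 to 37.19). The fit was tested on simulated data. Symbols came from the files for 52269 genes and from GENCODE M21 for 3124. Of 1281 protein-coding genes overlapped throughout by other genes 92% had no count in any library of the table, against 14.5% of 11661 without overlap, so counts of overlapped genes may be incomplete. Promoters are those of RefSeq, GRCm38.p6.

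Named genes were, in each direction, the 12 protein-coding genes with the largest called change, a mean of at least 1 CPM and no overlap between groups, the 10 with the smallest adjusted p, up to 5 called members per list, and Agrp, Npy, Pomc, Cartpt, Fos, Per1, Per2, Fkbp5 and Cdkn1a. A part of these 139 genes is printed, and other list members were named after their values were seen. The genes and lists were chosen with earlier results of these data known. Alternatives were RLE and library-size scaling, 2 other filters, the 1 h and 12 h libraries alone, a replicate block, a surrogate variable (sva 3.50.0), voom with quality weights (limma 3.58.1), DESeq2 1.42.0 and leaving out each library.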

Additional observations from a re-analysis of the deposited data

How the results depend on the processing

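Of the 138 called genes named, 96 kept their call without any single library and under every alternative that gave them an adjusted p. With a minimum of 1 CPM, 134 of the 139 named genes were tested. Called genes numbered 2242 in the 1 h and 12 h libraries alone, 2603 without a filter, 2767 with library-size scaling, 2820 with RLE, 2850 with a minimum of 1 CPM, 3350 with DESeq2, 3531 with a surrogate variable and 3811 with voom. Leaving out single libraries gave 1314 to 3537 called genes, 684 to 1602 higher and 606 to 1935 lower; 3 to 7 lower genes of the insulin and FoxO list, 0 to 23 of the ribosomal list and 3 to 5 of the astrocyte list. The lower insulin and FoxO genes numbered 5 in the 1 h and 12 h libraries alone, and voom called 21 ribosomal genes lower. The log2 fold change of Pomc ran from -0.57 (adjusted p = 0.743), without replicate 2 at 12 h, to 2.10. The cause of these shifts was not tested, beyond the smaller number of libraries.

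Replicate numbers are not stated to pair the 1 h and 12 h libraries. Deviations of same-numbered libraries correlated at -0.0476, 0.195 and 0.219 over 16110 genes, and of differently numbered ones at -0.296 to 0.117, and replicate 1 at 1 h correlated best with replicate 3 at 12 h. With the replicate number as a block 2060 genes were called, with 4 lower insulin and FoxO genes, 3 lower astrocyte genes and 14 of 138 named genes losing their call. With 3 libraries per group and 1 CPM at 26.04 to 33.9 counts, low genes were measured less precisely, with a standard error of 0.24 for Tmem30c, at a mean of 0.66 CPM at 1 h, against 0.08 for Pnpla2, at 39.5 CPM.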

Other observations

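Some lists not described above held a few called genes. Calr, a calcium-binding chaperone of the endoplasmic reticulum, was at 134, 144 and 144 CPM at 1 h and 193, 175 and 188 CPM at 12 h (log2 fold change 0.40 ± 0.07, adjusted p = 0.00309, edgeR). In its list 2 of 21 tested genes were higher and 1 was lower (9.52% and 4.76%), near the 7.08% and 7.14% of all tested genes. Phkb, a subunit of phosphorylase kinase, was at 70.5, 71.5 and 70.9 CPM at 1 h and 109, 102 and 104 CPM at 12 h (log2 fold change 0.57 ± 0.06, adjusted p = 8.61e-05, edgeR). Sulf1, an enzyme that trims heparan sulfate, was at 49.6, 45.6 and 50.8 CPM at 1 h and 69.4, 70.7 and 72.8 CPM at 12 h (log2 fold change 0.54 ± 0.06, adjusted p = 0.000143, edgeR). In each of these genes every 12 h library was above every 1 h library, as in 15.6% of all tested genes. They were named because they were called, so the gap between their groups is no added support.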
